A study of Mus musculus with 2 samples.

Results

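The cells described here are macrophages of the infarcted mouse heart that carried transcripts of resident-type cardiac macrophages 14 days after coronary ligation. They are 658 of the 3538 non-cycling macrophages of the infarct library, which holds 8555 cell barcodes of the 14892 in the series. A cell counted as a non-cycling macrophage when Ctss, Cd68, Csf1r, C1qa, C1qb and C1qc made up at least 0.3% of its UMIs (unique molecular identifiers, each standing for 1 captured mRNA molecule), Col1a1, Col1a2 and Col3a1 less than 1.5%, mitochondrial transcripts at most 25%, and Mki67, Top2a, Cenpf, Birc5 and Ube2c together at most 2 UMIs. It was within the resident-gene limit when Lyve1, Folr2, Cbr2, Cd163 and F13a1 together gave at least 3 UMIs. Because these measured values chose the cells, the levels of those genes are given only as a description. The 1171 sham cells within the same limits, of 1534 non-cycling sham macrophages, are set beside them.

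The 2 libraries were made by Drop-seq, which captures single cells in droplets with barcoded beads. Both came from hearts of male wild type C57BL6/J mice that were 8 to 10 weeks old, with no transgene and no drug named in the labels. The infarct (MI) library came from 1 heart taken 14 days after the left anterior descending coronary artery was tied, and the sham library from a pool of 4 hearts taken 14 days after the same operation with the suture left loose. With 1 library per condition there was no replicate check of any difference and no test, so a heart, a library and a condition cannot be told apart, and every interval below is an exact 95% interval for counting error only.

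Resident cardiac macrophages are long-lived cells that settle in the heart early in life and partly renew themselves there. Many carry the hyaluronan receptor Lyve1, the folate receptor Folr2 and the haemoglobin scavenger receptor Cd163, and clear dying cells and debris. After infarction many of them are lost, and monocytes that enter from blood through the chemokine receptor Ccr2 give rise to most macrophages of the healing wall. F13a1, the A subunit of coagulation factor XIII, is carried by resident macrophages and also by monocytes.

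The macrophages within the limits held 657 to 10712 UMIs per cell in MI (median 2100) and 710 to 8252 in sham (median 1443), while the other 2880 MI macrophages had a median of 1580.5. The group totals were 1521193 UMIs in MI and 1951370 in sham. Levels are given as counts per 1000000 (CPM), the UMIs of a gene scaled to the total of the UMIs summed over the cells of a group. The doublet caller scrublet marked 4 of the 658 MI cells (0.608%) and 115 of the 1171 sham cells (9.82%). Across the libraries 5 barcodes occurred in both, and 2 of these were among the 658 cells. RNA of other cell types moved with the condition: summed markers of cardiomyocytes were 7.23 CPM in the MI cells and 206 in the sham cells, those of endothelium 135 and 1457, and those of fibroblasts 1185 and 1328. Fibroblast markers gave at least 3 UMIs in 38.0% of the MI cells and 9.82% of the sham cells, and in 41.3% of the MI and 22.0% of the sham lymphocytes. Their part in the differences below was not tested, and the levels in lymphocytes (121 MI cells, median 1365 UMIs, and 50 sham cells, median 1575), which should lack most macrophage genes, are given where they bear on a value. The lymphocytes also held endothelial markers, at 686 CPM in MI and 6730 in sham. At least 3 such UMIs were in 2.48% of the MI and 26.0% of the sham lymphocytes. A lymphocyte level is thus no measure of free RNA alone, and expression of a gene by lymphocytes themselves was not tested. The lymphocytes were also chosen to hold less than 0.1% of UMIs from the macrophage genes and less than 1.5% from the collagen genes. Cells with much free macrophage RNA could thus be left out, so low levels of macrophage genes in lymphocytes may partly follow from that choice.

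The share of macrophages within the resident-gene limit was 18.6% (17.3 to 19.9) in MI and 76.3% (74.1 to 78.4) in sham. Of the MI macrophages 1955 had no UMI of the 5 genes, 331 had 2 and so fell just outside the limit, and 211 had 3 and so fell just inside. In MI the sum of the 5 genes ran from 3 to 42 UMIs per cell with a median of 4, and in sham from 3 to 81 with a median of 11. Most MI cells within the limit therefore sat close to it, although they were the deeper cells. The limit counts UMIs and so depends on depth. After every cell was thinned to 500 UMIs the shares were 2.88% and 52.3%.

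**Figure D1:**
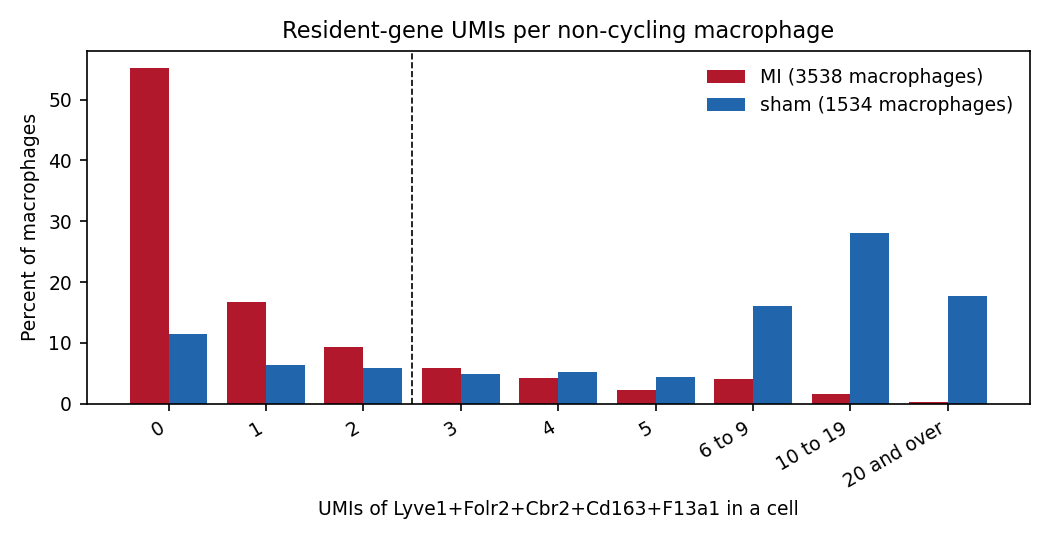
Percent of non-cycling macrophages (y axis) by the UMIs of Lyve1, Folr2, Cbr2, Cd163 and F13a1 summed in a cell (x axis), for the MI library (red, 3538 cells) and the sham library (blue, 1534 cells). The dashed line is the limit of 3 UMIs. The largest MI class is 0 UMIs (55.3%) and the largest sham class is 10 to 19 UMIs (28.0%).

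The 5 genes did not bring cells within the limit equally, and here the data go partly against the name resident-type. Of the 658 MI cells, 287 (43.6%, 39.8 to 47.5) were within the limit through F13a1 alone, with no UMI of the other 4 genes, against 25 of 1171 sham cells (2.13%, 1.39 to 3.14). All 5 genes were found together in 16 MI cells (2.43%) and 322 sham cells (27.5%). With F13a1 left out of the sum, 163 of 3538 MI macrophages (4.61%) and 1012 of 1534 sham macrophages (66.0%) reached 3 UMIs. The cells are therefore called here by their rule, as macrophages within the resident-gene limits, and those that reached 3 UMIs of Lyve1, Folr2, Cbr2 and Cd163 are given apart.

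Lyve1 (chr7:110850607-110862953), the hyaluronan receptor, was at 199 CPM in the MI cells within the limits and 1810 in the sham cells. Folr2 (chr7:101839988-101857190), a folate receptor, was at 120 and 812 CPM. Cbr2 (chr11:120729485-120732025), a carbonyl reductase, was at 250 and 1320 CPM. Cd163 (chr6:124304636-124330529), which takes up haemoglobin bound to haptoglobin, was at 303 and 1321 CPM, and F13a1 (chr13:36867178-37050244) at 1565 and 3051 CPM. Each of the 5 chosen genes was thus at a lower level in the MI cells, and F13a1 was nearest to its sham level. All positions are of the protein-coding genes in RefSeq on the assembly GRCm38.p6 (mm10).

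Resident macrophage genes that the limits did not use were mostly below their sham level. Of 25 such genes 24 had at least 20 UMIs in the 2 groups together. Of these, 11 were at least 2-fold lower in MI, 1 was at least 2-fold higher and 12 differed by less (median log2 ratio -0.83). Among all 9889 genes so measured, 15.2% were at least 2-fold lower and 6.43% at least 2-fold higher, and the median log2 ratio was -0.16, so a gene at the same level relative to the bulk of genes has a log2 ratio near -0.16 here. The list was chosen with earlier results of these libraries known. With the 163 and 1012 cells chosen without F13a1, 6 of the 24 genes were at least 2-fold lower and 2 higher (median -0.41). With limits after thinning 5 of the 24 were lower and 2 higher (median -0.48).

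The mannose receptor Mrc1 (chr2:14229414-14332023), which takes up glycoproteins, was at 1655 CPM (1591 to 1721) in the MI cells, 2145 (2080 to 2211) in the sham cells and 767 (743 to 791) in the other MI macrophages. Pf4, a chemokine made by resident macrophages and platelets, was at 2937 CPM in the MI cells, 4424 in the sham cells and 1361 in the other MI macrophages. Sepp1, the secreted selenium carrier, was at 3933, 5625 and 2429 CPM in the same order. All 3 genes sat between the other MI macrophages and sham, with log2 ratios of MI to sham of -0.37 (-0.45 to -0.30) for Mrc1, -0.59 for Pf4 and -0.52 for Sepp1. Gas6, a bridge between dying cells and the receptors that engulf them, had the same order at 405, 664 and 168 CPM. Igf1, a growth factor, was at 408, 479 and 270 CPM. Of the other genes that differed from sham by less than 2-fold, the scavenger receptor Stab1 had a log2 ratio of -0.38, the endocytic adaptor Dab2 -0.53, Ltc4s -0.69, the sorting nexin Snx2 -0.95, the ubiquitin ligase Wwp1 -0.14 and the adhesion protein Ninj1 0.36.

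A second set of resident genes was further below sham with all 5 genes in the limit. For Timd4 and Ccl24 the amount depended on F13a1. The log2 ratio of Timd4 was -3.44, and -1.78 with cells chosen without F13a1, and that of Ccl24 was -3.21 and -2.26. The other genes of the set are given for the limit with all 5 genes only, and fewer genes of the list were 2-fold lower by the other rules. Timd4 (chr11:46810786-46844333), the phosphatidylserine receptor that marks the longest-lived resident macrophages, was at 11.2 CPM (6.51 to 17.9) in the MI cells, 121 (106 to 137) in the sham cells and 0.191 in the other MI macrophages, where 1 UMI was found. Ccl24, an eosinophil attractant, was at 41.4 CPM in the MI cells, 384 in the sham cells and 9.74 in the other MI macrophages. Hpgd, which degrades prostaglandins, was at 65.7 CPM in the MI cells against 637 in the sham cells. Timd4 and Ccl24 were thus low in MI but still above the other MI macrophages. Hpgd was not above them, at 88.2 CPM in the others (log2 ratio -0.42, -0.75 to -0.11). The lectins Cd209f and Cd209g were at 7.23 and 0.657 CPM in MI and 35.4 and 21.5 in sham. The receptor Fgfr1 was at 23.0 CPM in MI and 129 in sham, Gas7 at 42.7 and 145, the neonatal Fc receptor Fcgrt at 172 and 424, the lectin Clec10a at 54.6 and 135, and the membrane protein Pmp22 at 109.8 and 244. These 5 genes had log2 ratios from -2.48 (Fgfr1) to -1.15 (Pmp22). The complement receptor Vsig4 was at 18.4 CPM (12.2 to 26.6) in MI, 44.1 (35.3 to 54.4) in sham and 2.10 in the other MI macrophages.

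Ccl8 and Fcna departed from this order. Ccl8 (chr11:82115185-82116799), a chemokine that draws monocytes and T cells, was at 640 CPM (601 to 682) in the MI cells, 204 (185 to 226) in the sham cells, 200 (188 to 212) in the other MI macrophages and 11.2 in the other sham macrophages. It was the only one of the 24 resident genes at least 2-fold above sham, with a log2 ratio of 1.65 (1.48 to 1.82), and 1.49 without scrublet doublets. Fcna (chr2:25624665-25635440), the ficolin that starts the lectin complement pathway, was at 133 CPM (116 to 153) in the MI cells, 185 (166 to 205) in sham and 19.7 in the other MI macrophages. Its direction against sham depended on how cells were chosen: the log2 ratio was -0.47 with all 5 genes and 1.03 with the cells chosen without F13a1. In those 163 MI cells Fcna was at 413 CPM (350 to 484), against 202 (181 to 224) in the 1012 sham cells.

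**Figure D2:**
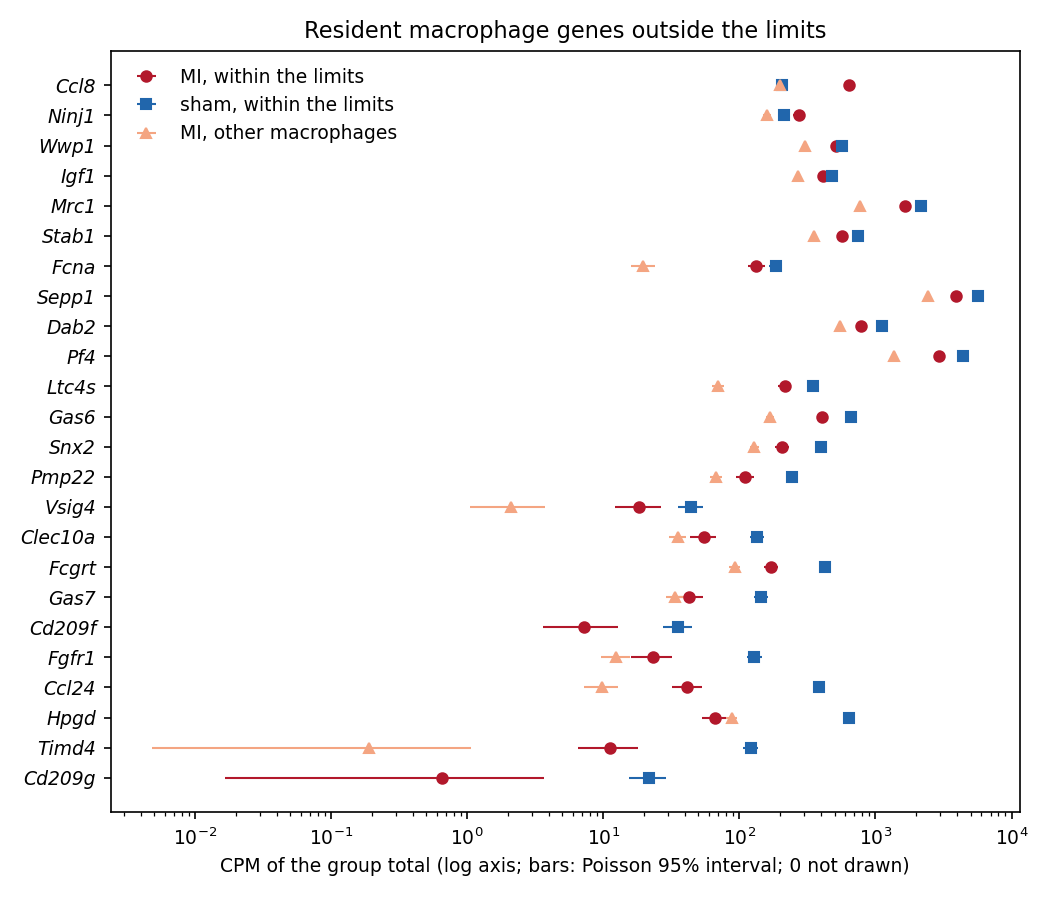
Level in CPM (x axis, log scale) of each of the 24 resident macrophage genes outside the limits (y axis), in the MI cells within the limits (red circles), the sham cells within the limits (blue squares) and the other MI macrophages (orange triangles); bars are exact Poisson 95% intervals, and a level of 0 is not drawn. Genes run from the highest to the lowest ratio of MI to sham: Ccl8 at the top is at 640 CPM in MI and 204 in sham, and Timd4 near the bottom at 11.2 and 121.

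Genes of lipid-handling, scar-associated macrophages were mostly at higher levels in the MI cells within the limits than in the sham cells. Of 16 lipid-associated macrophage genes 10 were at least 2-fold higher and 2 at least 2-fold lower (median log2 ratio 2.09). The shares of all 9889 genes measured, 6.43% higher and 15.2% lower, apply to each count of a list against sham. Against the other MI macrophages 1 of the 16 was at least 2-fold higher and 1 lower (median 0.11). Among all genes of that comparison 2.02% were higher and 3.68% lower. As a list these genes thus did not set the cells apart within MI. Spp1 (chr5:104435111-104441053), which encodes the matrix protein osteopontin, was at 2682 CPM (2600 to 2766) in the MI cells and 3.07 (1.13 to 6.69) in the sham cells, a log2 ratio of 9.77 (8.65 to 11.22). It was found in 69.5% of the MI cells within the limits, in 49.4% of the other MI macrophages and in 13.2% of the MI lymphocytes, and in 48.8%, 31.9% and 6.61% after thinning to 500 UMIs. Its level in the MI lymphocytes was 83.9 CPM. Gpnmb, a membrane glycoprotein of lysosome-rich macrophages, was at 235 CPM in MI and 1.54 in sham, where 3 UMIs were counted (log2 ratio 7.25, 5.70 to 9.54). Trem2, the lipid-sensing receptor, was at 636 CPM in MI and 105 in sham. Ctsd, a lysosomal protease, was at 2954 and 291 CPM, and the lectin Lgals3 at 1054 and 100. The 2 genes at least 2-fold lower, Fabp4 and Cd36, are carriers of fatty acids that capillary endothelium also makes in large amounts. They were at 72.3 and 158 CPM in the MI cells against 1025 and 573 in the sham cells, and sham lymphocytes held 4578 and 1471 CPM of them.

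Of 18 cathepsin and lysosome genes 7 were at least 2-fold higher in MI, 11 differed by less and none was at least 2-fold lower (median 0.62). With limits after thinning 4 of 17 were higher. Against the other MI macrophages none of the 18 was at least 2-fold higher and 1 was lower (median 0.08). The 7 that were higher against sham included the proteases Ctsl (1154 CPM in MI, 199 in sham) and Lgmn (1739 and 517). Psap (2881 and 1202), the precursor of the saposins that help degrade lipids, was another. Of 13 genes for the uptake of dying cells 3 were higher, 1 lower and 9 differed by less than 2-fold (median 0.65). The phosphatidylserine receptor Havcr2 was at 69.7 CPM in MI and 18.4 in sham. Of 11 heme and iron genes 2 were higher and 2 lower, and Hmox1, which degrades heme, was at 248 CPM in MI and 106 in sham.

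Genes of blood monocytes were at higher levels in the MI cells, with 12 of 18 at least 2-fold higher and 1 at least 2-fold lower (median log2 ratio 2.40). The median was 1.42 with cells chosen without F13a1 (13 of 18 higher) and 1.14 with limits after thinning (9 of 15 higher, 2 lower). Ccr2 (chr9:124101918-124109140), the receptor by which monocytes leave the marrow and enter tissue, was at 596 CPM (557 to 636) in the MI cells and 106 (92.1 to 121.6) in the sham cells. It was at 1151 CPM in the other MI macrophages and 1144 in the other sham macrophages, so the cells within the limits were the lower group in both libraries. The MI lymphocytes held 326 CPM of Ccr2, which some lymphocytes also express. Fibronectin, Fn1, was at 367 CPM in the MI cells and 10.8 in the sham cells, with 242 in the MI lymphocytes. Thbs1, a matrix glycoprotein, was at 278 and 6.66 CPM, with 109 in the MI lymphocytes. Of these levels Fn1 came nearest to the level in cells that should lack the gene, and the part of free RNA, fibroblast RNA included, was not tested. The 1 gene at least 2-fold lower was Ly6c2, a surface protein of young monocytes and also of capillaries, at 19.1 CPM in MI and 61.5 in sham, with a log2 ratio of -1.69 that became 0.25 without the scrublet doublets.

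Genes of alternative activation, which interleukin 4 and related signals induce, split apart. Of 7 measured members 4 were at least 2-fold higher in MI and 2 at least 2-fold lower. Arg1 (chr10:24915207-24927470), which breaks down arginine, was at 507 CPM (472 to 544) in the MI cells and at 0 UMIs in the sham cells, so it was at least 8.36 higher on the log2 scale against a floor of 3 UMIs in the sham group. It was found in 28.1% of the MI cells, in 1.65% of the MI lymphocytes, and in 14.4% and 0.826% after thinning. Retnla (chr16:48842609-48844461), a secreted protein of alternatively activated macrophages, was at 7.23 CPM (3.61 to 12.9; 11 UMIs) in the MI cells and 1060 (1015 to 1107; 2069 UMIs) in the sham cells, a log2 ratio of -7.20 (-8.20 to -6.35). Its sham UMIs came from 11.02% of the cells, and the lymphocytes of both libraries held none. Mgl2, a galactose-binding lectin, was at 4.60 CPM in MI and 681 in sham, with 19.5 in the sham lymphocytes (log2 ratio -7.21, -8.53 to -6.16). Both were at similar levels in the other sham macrophages, at 1462 CPM for Retnla and 660 for Mgl2, and at 1.72 and 4.20 in the other MI macrophages, so the low level was shared by the MI macrophages outside the limits.

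The 180 bases before the Retnla start are shown because the genes of this list went opposite ways. The capitals mark a match to TTCNNNNGAA, the letters bound by STAT6, the factor that interleukin 4 activates, whose first base lies 145 bases before the start, and a match to TTGCNNAA, letters bound by C/EBP factors, whose first base lies 134 bases before it. Both strands were searched and the matches do not overlap. The sequence is from RefSeq, GRCm38.p6 (mm10), chr16:48842429-48842608, plus strand, 5′ to 3′. In windows of 250 bases before 32851 starts, TTCNNNNGAA was found in 5.85% and TTGCNNAA in 9.56%. Of 9 genes of the list with a window, 4 held TTCNNNNGAA (Ccl17, Clec7a, Pdcd1lg2 and Retnla) and 2 held TTGCNNAA (Ear2 and Retnla). Arg1, which went the other way, had no window, and matches were not compared between the higher and lower genes. The letters therefore do not bear on the split. A match describes the letters and does not show binding.
Retnla: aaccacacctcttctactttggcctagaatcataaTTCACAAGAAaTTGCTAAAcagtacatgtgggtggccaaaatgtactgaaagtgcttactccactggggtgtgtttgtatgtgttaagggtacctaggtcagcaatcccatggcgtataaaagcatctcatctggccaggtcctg

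MHC class II molecules present fragments of engulfed protein to helper T cells. All 7 measured members (Cd74, H2-Aa, H2-Ab1, H2-Eb1, H2-DMa, H2-DMb1 and Ciita) were at least 2-fold lower in the MI cells within the limits than in the sham cells (median log2 ratio -2.48), and all 7 were so without scrublet doublets. H2-Aa, an alpha chain, was at 329 CPM (301 to 359) in the MI cells, 1809 (1750 to 1870) in the sham cells, 1910 (1873 to 1948) in the other MI macrophages and 5363 in the other sham macrophages. In both libraries the cells within the limits were thus the lower group, and the MI cells were the lowest of the 4 groups. The invariant chain Cd74 was at 274, 4152, 1456 and 11738 CPM in the same order. Ciita, the master regulator of these genes, was at 3.29 CPM (1.07 to 7.67) in MI and 21.0 (15.1 to 28.5) in sham. Per cell, the UMIs of 4 MHC class II genes ran from 0 to 100 with a median of 0 in the MI cells within the limits, from 0 to 219 with a median of 1 in the other MI macrophages, and from 0 to 206 with a median of 6 in the sham cells within the limits.

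The 120 bases before the starts of 3 of these genes are shown because the list was low together. Capitals mark GATTGG or its reverse CCAATC, the core of the Y box bound by NF-Y in MHC class II promoters. The first base of the match lies 49 bases before the start in H2-Aa, 60 and 35 in H2-Eb1 and 62 in H2-DMb1. The sequences are from RefSeq, GRCm38.p6 (mm10), each 5′ to 3′ on the strand of its gene: chr17:34287824-34287943 (minus strand) for H2-Aa, chr17:34305747-34305866 (plus strand) for H2-Eb1 and chr17:34153071-34153190 (plus strand) for H2-DMb1. All 6 genes of the list with a window held GATTGG on 1 of the strands (H2-Aa, H2-DMa, H2-DMb1, H2-Eb1, H2-Oa and H2-Ob), against 14.6% of all 32851 windows of 250 bases, and none held TTCNNNNGAA or TTGCNNAA.
H2-Aa: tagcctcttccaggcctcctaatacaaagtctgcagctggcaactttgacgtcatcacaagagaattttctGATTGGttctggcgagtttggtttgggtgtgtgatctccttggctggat
H2-Eb1: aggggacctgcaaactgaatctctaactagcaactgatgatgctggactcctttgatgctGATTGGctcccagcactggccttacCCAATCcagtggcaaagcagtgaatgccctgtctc
H2-DMb1: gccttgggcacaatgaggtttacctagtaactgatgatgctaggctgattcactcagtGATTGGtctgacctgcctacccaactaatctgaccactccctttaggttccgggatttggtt

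Other regulators differed gene by gene. Of 30 macrophage transcription factors 4 were at least 2-fold higher in MI, 4 at least 2-fold lower and 22 differed by less (median -0.11). Among all 9889 genes measured 6.43% were at least 2-fold higher and 15.2% lower, so the lower count was near the share of all genes. Klf2, a factor that restrains inflammatory genes, was at 50.6 CPM in MI and 470 in sham, with 302 in the sham lymphocytes. Irf4, a factor of alternative activation, was at 1.31 CPM (2 UMIs) in MI and 15.4 in sham (log2 ratio -3.55, -6.66 to -1.57), while Id2 was at 296 and 49.7 CPM. Of 15 chemokines 3 were at least 2-fold higher and 3 lower (median -0.57), but with limits after thinning 6 were higher and 1 lower (median 0.77), so the direction of the list depended on how cells were chosen. Of 5 chemokine receptors 3 were higher, namely Ccrl2 (145 and 12.8 CPM), Cxcr4 (127 and 26.1) and Ccr1 (302 and 108). No complement gene outside the limits was at least 2-fold higher, and 5 of 13 were lower, among them C3 (15.8 CPM in MI, 91.2 in sham). Among genes that cell isolation and heat can induce, 5 of 10 were at least 2-fold lower in MI and none higher (median -0.88), with Hspa1a at 6.57 and 56.4 CPM. The 50 sham lymphocytes, with 102671 UMIs in all, held 87.7 CPM of Hspa1a and the 121 MI lymphocytes none. For this gene the same order was thus seen in these few other cells.

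By the size rule applied to all genes, further genes far above sham were Saa3, an acute-phase protein (388 CPM in MI, 11.3 in sham), Apoc2, an activator of lipoprotein lipase (158 and 5.64), Syngr1, a vesicle protein (176 and 1.54), and Rgs1, a brake on chemokine receptors (311 and 15.4, with 256 in the MI lymphocytes). Saa3 was found in only 10.8% of the MI cells and 0.598% of the sham cells. Lrg1, a secreted glycoprotein, was at 48.6 CPM in MI and at 0 UMIs in sham, which is at least 4.98 higher on the log2 scale. Cthrc1 and Tagln, genes of activated fibroblasts and smooth muscle, were at 32.9 and 69.0 CPM in MI. Cthrc1 stood at 59.2 CPM in the MI lymphocytes, so its level in the macrophages was not above that in cells that should lack it. Tagln stood at 29.6 CPM there.

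Genes far below sham included Pla2g2d, a secreted phospholipase (1.97 CPM in MI, 94.3 in sham), Lilra5, an immunoglobulin-like receptor (5.26 and 156), and St3gal6 (6.57 and 169), a sialyltransferase. Cmah, a sialic acid hydroxylase, was at 7.89 and 221 CPM, and Bank1, an adaptor best known in B cells, at 3.29 and 139. Both were also found in the sham lymphocytes, at 185 CPM for Cmah and 360 for Bank1. Tnfrsf17 was at 0 UMIs in MI and 40.0 CPM in sham. Mgll and Clic5, at 1.97 and 0.657 CPM in MI, were at 114 and 57.9 in sham and at 292 and 205 in the sham lymphocytes. Tnnt2, the cardiomyocyte troponin, was at 0 UMIs in MI and 55.9 CPM in sham. Without scrublet doublets the log2 ratio of Mgll was -4.19 in place of -5.86 and that of Clic5 -4.73 in place of -6.46.

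Within the MI library the cells within the limits differed from the other 2880 macrophages in fewer genes. Of 10784 genes measured 218 (2.02%) were at least 2-fold higher and 397 (3.68%) at least 2-fold lower, and the median log2 ratio was -0.00. The 5 genes of the limit differ by the rule. Among resident macrophage genes outside it, 8 of 21 were at least 2-fold higher and none lower (median 0.78), namely Fcna, Vsig4, Ccl8, Ccl24, Ltc4s, Gas6, Pf4 and Mrc1. Fcna had a log2 ratio of 2.76 (2.41 to 3.12), and 3.07 against other macrophages weighted to the same depth. Vsig4 had 3.13 (2.08 to 4.29) and Mrc1 1.11 (1.04 to 1.18). Ltc4s, which makes leukotriene C4, was at 215 CPM (192 to 239.6) against 69.9 (62.9 to 77.4).

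Of 15 chemokines 3 were at least 2-fold higher than in the other MI macrophages and 2 lower (median 0.12). The count depended on the rule: 7 were higher and 2 lower with cells chosen without F13a1 (median 0.45). With limits after thinning 7 were higher and 3 lower (median 0.71). Among the 3 higher with the main limits, Ccl6 was at 1233 CPM in the cells within the limits and 427 in the other macrophages, and Ccl7 at 156 and 51.4. Ccl24, counted above with the resident genes and not in this list, was at 41.4 and 9.74. Further genes were higher by the size rule. C4b, the complement component, was at 79.5 and 19.9 CPM. Ednrb, an endothelin receptor, was at 149 and 28.5 CPM. Saa3 was at 388 and 135 CPM, Lrg1 at 48.6 and 14.1, and Arg1 at 507 and 208 (log2 ratio 1.28, 1.15 to 1.42), so Arg1 was higher in the cells with resident genes than in the rest. Spp1 was closer, at 2682 and 1953 CPM (log2 ratio 0.46). Saa3 was found in 10.8% of the cells within the limits and 4.34% of the other macrophages. The iron exporter Slc40a1 was at 65.1 and 22.9 CPM, a direction that did not hold (-0.17) for cells chosen after thinning.

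MHC class II genes were low inside MI as well: all 9 measured members were at least 2-fold lower in the cells within the limits (median -2.41). Of the 9, 8 were lower against depth-weighted macrophages, 7 without F13a1, 7 with every cell thinned (median -1.66), and 7 with limits after thinning, where 1 was higher (median -1.77). The log2 ratio was -2.63 (-2.76 to -2.50) for H2-Eb1, -2.57 for H2-Ab1, -2.54 for H2-Aa and -2.41 for Cd74. H2-Aa had -2.36 against depth-weighted macrophages and -3.13 with cells chosen without F13a1. Summed markers of dendritic cells, which carry much MHC class II, were 5.92 CPM in the cells within the limits and 68.9 in the other macrophages, and their part in this difference was not tested. Also lower were Ighm, the heavy chain of IgM (28.9 and 183 CPM, with 8987 in the MI lymphocytes), Cd72, a receptor of B cells and some macrophages (66.4 and 200), Napsa, an aspartic protease (24.3 and 77.9), Rnase6 (8.55 and 32.8) and Sh2d1b1 (11.8 and 41.8). Of the monocyte genes few differed by 2-fold, with 1 of 19 higher, 1 lower (Plac8) and a median of -0.04. That count depended on the rule: with cells chosen without F13a1, which monocytes carry too, 1 was higher and 3 lower (median -0.46), and with limits after thinning 2 were higher and 5 lower (median -0.12). Ccr2 had -0.95 (-1.05 to -0.85), and -1.68 with cells chosen without F13a1.

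**Figure D3:**
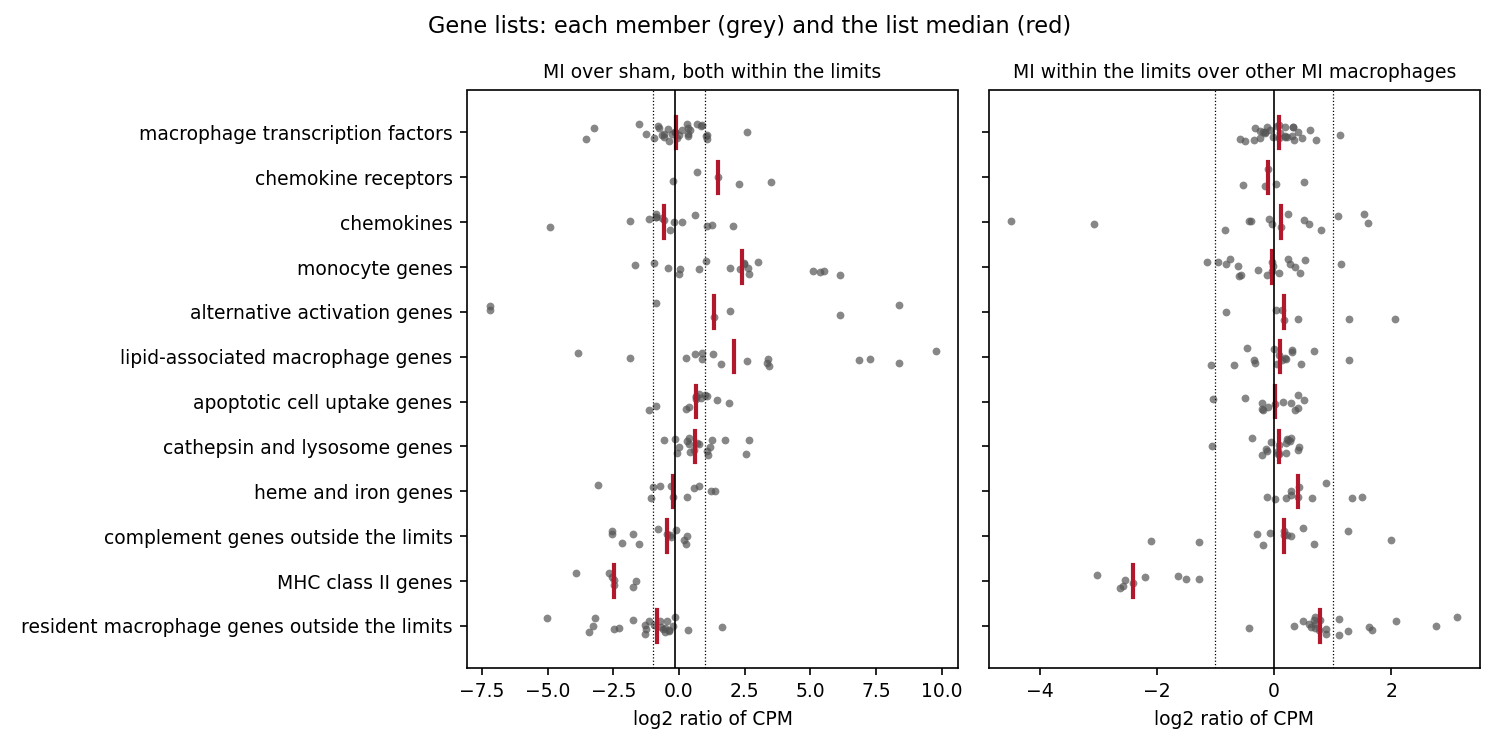
Log2 ratio of CPM (x axis) for each measured member of 12 gene lists (grey points) with the list median (red bar), for MI over sham cells within the limits (left) and MI cells within the limits over other MI macrophages (right). The solid line is the median of all genes measured and the dotted lines mark 2-fold. MHC class II genes lie below -1 in both panels (medians -2.48 and -2.41), while monocyte genes have medians of 2.40 on the left and -0.04 on the right.

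The 287 MI cells that reached the limit through F13a1 alone differed from the 371 with a UMI of Lyve1, Folr2, Cbr2 or Cd163. Of 7096 genes measured 115 (1.62%) were at least 2-fold higher in the F13a1-alone cells and 218 (3.07%) at least 2-fold lower. Of 21 resident genes outside the limits none was higher and 8 were lower (median -0.36). Fcna was at 28.4 CPM in the F13a1-alone cells and 216 in the others (log2 ratio -2.92, -3.69 to -2.24), Saa3 at 103 and 611, Ccl8 at 316 and 895, Ccl6 at 645 and 1694, Ltc4s at 98.7 and 306, and Ednrb at 70.3 and 210. Higher in the F13a1-alone cells were Il1b, the inflammatory cytokine (251 and 55.1 CPM), Nfib (44.9 and 10.6) and the MHC class II genes H2-Ab1 (633 and 263), Cd74 (383 and 189), H2-Eb1 (470 and 239) and H2-Aa (455 and 231). Pf4 and Igf1 hardly differed, with log2 ratios of -0.04 (-0.13 to 0.04) and -0.12 (-0.36 to 0.11). Ccr2 was at 791 CPM against 442. Saa3 was found in only 7.67% of the F13a1-alone cells and 13.2% of the others.

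The cells within the limits were also ordered by their UMIs of Lyve1, Folr2, Cbr2 and Cd163. These genes are part of the rule and the first class is again the F13a1-alone cells, so the order describes the same split in more classes and is no further support for it. The 658 MI cells divide into 287 with 0, 130 with 1, 78 with 2, 102 with 3 to 5 and 61 with at least 6 such UMIs, and their median depth ran from 1931 to 2251 UMIs with no order. Ccl8 was at 316, 610, 668, 901 and 1838 CPM in these 5 classes, and Fcna at 28.4, 57.0, 84.9, 289 and 628. Ccr2 went the other way, at 791, 610, 387, 349 and 306 CPM. H2-Aa was at 455, 315, 186, 215 and 135 CPM. Timd4 was found in 2, 0, 1, 6 and 8 UMIs, which is 59.8 CPM (25.8 to 117.8) in the top class.

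In sham the last class was also below the first for H2-Aa, at 4195 CPM in the 25 cells with 0 UMIs and 1256 in the 729 cells with at least 6, and for Ccr2, at 829 and 58.4. Ccl8 was at 25.9 (1 UMI in 25 cells), 168, 203, 167 and 222 CPM in the sham classes. In the top class, Ccr2 was thus at 306 CPM (220 to 416) in MI and 58.4 (46.2 to 72.9) in sham, H2-Aa at 135 (79.7 to 212.6) and 1256 (1197 to 1318), and Spp1 at 1308 (1121 to 1517) and 0.749, the latter from 1 UMI. The Ccr2 level of the top MI class was not above the 326 CPM of the MI lymphocytes. Some lymphocytes express Ccr2 themselves, so their level is no background level, and the part of free RNA was not tested. Spp1 was at 2982, 2597, 2472, 2892 and 1308 CPM over the 5 MI classes and so was lowest where resident transcripts were highest, while Arg1 was at 465, 449, 403, 547 and 919.

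**Figure D4:**
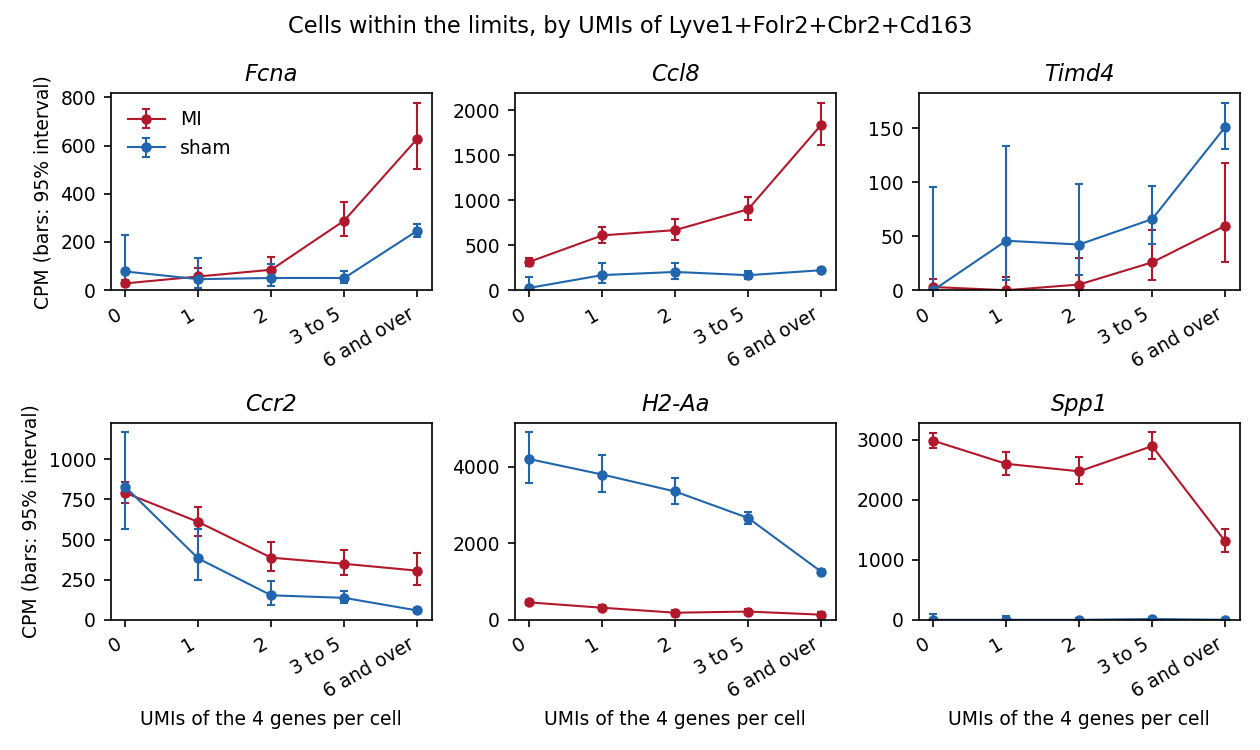
Level in CPM (y axis, bars are exact Poisson 95% intervals) of 6 genes in cells within the limits, grouped by their UMIs of Lyve1, Folr2, Cbr2 and Cd163 (x axis), in MI (red) and sham (blue). Fcna and Ccl8 are highest in the last MI class (628 and 1838 CPM), Ccr2 and H2-Aa are lower in the last class than in the first in both libraries, and Spp1 is near 0 in all sham classes.

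Shares of cells with Spp1 differed from gene to gene. Lyve1, Cd163 and Folr2 are genes of the rule, so cells without a UMI of 1 of them passed through the others. The 287 F13a1-alone cells are among those without each. The splits by these genes are therefore description only. Cells are not replicates, and the intervals cover counting error only. Spp1 was found in 35 of the 93 MI cells with a Lyve1 UMI (37.6%, 27.8 to 48.3; median 1765 UMIs) and in 422 of the 565 without (74.7%, 70.9 to 78.2; median 2190 UMIs). For Mrc1 the order was the opposite, with Spp1 in 71.7% (67.7 to 75.4; median 2187 UMIs) of the cells with a Mrc1 UMI and 57.0% (46.7 to 66.9; median 1727.5 UMIs) of those without. For Cd163 the shares with Spp1 were 65.6% (57.8 to 72.9) and 70.7% (66.5 to 74.7), whose intervals overlap. Cells with a Cd163 UMI held Arg1 more often, in 62 of 163 (38.0%, 30.6 to 46.0), than those without, in 123 of 495 (24.8%, 21.1 to 28.9), and at a slightly lower median depth of 1975 against 2144 UMIs. For Folr2 the shares with Spp1 were 64.3% (55.4 to 72.6) and 70.7% (66.6 to 74.5), which overlap as well.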

How the data were processed

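Single cells of 1 infarcted heart and of 4 pooled sham hearts were measured by Drop-seq. The authors deposited 1 table per library with the raw count of UMIs for each gene in each cell, which per the file headers has genes in rows and cell barcodes in columns; every value was checked to be a whole number. Per the submitters' processing notes the build was mm10 and Seurat was used. The aligner and counting settings were not given in the sources used here. The tables held 8555 and 6337 barcodes with 33275336 and 11307405 UMIs (medians 2466 and 1424 per cell), and all columns were used.

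UMIs were summed over the cells of a group and given as CPM with exact Poisson intervals, shares of cells with exact Clopper-Pearson intervals, and ratios with exact conditional binomial intervals, all at the 95% level. With 1 library per group there was no test and no p-value, and genes are counted by size, at least 2-fold among genes with at least 20 UMIs over the 2 groups compared. A group without a UMI was set to a floor of 3 UMIs over the group. The computation was tested on simulated data. The members and the gene lists were chosen with earlier results of these data known. Genes named by size had at least 30 UMIs over both groups and a UMI in at least 5% of the cells of 1 group, and were ranked by the interval bound nearest to no difference: 12 in each direction in the first 2 comparisons and 6 in the comparison of F13a1-alone cells. Genes of the limits, mitochondrial, ribosomal, hemoglobin, Y-linked, Xist, Gm and Rik genes were not ranked. Lists were named by at least 3 members where the text treats them in depth, and single genes of the other lists and of the classes by Lyve1, Folr2, Cbr2 and Cd163 were picked after their values were seen. Lymphocytes were cells with at least 3 UMIs of lymphocyte markers and less than 0.1% of macrophage genes, within the same mitochondrial and collagen limits. Doublets were scored with scrublet and kept, except in an alternative. Thinning drew 500 UMIs from each cell. Alternatives changed the resident limit, the count minimum, the weighting of cells, the depth, the doublets and the use of F13a1. Promoter windows were RefSeq, GRCm38.p6. Some results are not reported here. Python 3.11.15, numpy 2.4.6, scipy 1.17.1, scanpy 1.11.5, anndata 0.12.19 and matplotlib 3.10.9 were used.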

Additional observations from a re-analysis of the deposited data

How the results depend on the processing

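The share of macrophages within the limit was 27.95% in MI and 82.2% in sham with a limit of 2 UMIs (log2 ratio -1.56), 8.42% and 66.2% with 5 UMIs (-2.98), 2.88% and 52.3% with the limits set after thinning to 500 UMIs (-4.18), and 4.61% and 66.0% without F13a1 (-3.84). Genes at least 2-fold higher and lower against sham numbered 389 and 835 with at least 50 UMIs, 1081 and 2567 with no filter on low counts, and 397 and 816 with every cell thinned. Against the other MI macrophages they numbered 85 and 149 with at least 50 UMIs, 906 and 779 with no filter, 1942 and 873 with limits after thinning, and 820 and 820 without F13a1, and 687 were lower with a limit of 5 UMIs. For the F13a1-alone cells they numbered 12 and 34 with at least 50 UMIs and 636 and 774 with no filter, and 176 were higher with equal weight of cells. Of 1548 alternative values of single genes that were at least 2-fold as reported, 1540 kept their direction and 1473 stayed at least 2-fold. The 8 that turned were, against sham, Cxcl10 (-0.70 with a limit of 5 UMIs and -0.76 without F13a1), Ly6c2 (0.25 without scrublet doublets), Cd55 (0.15) and Cxcl9 (1.47) with limits after thinning, and Ifit2 (-0.37 without F13a1), and, against the other MI macrophages, Cxcl9 (0.55) and Slc40a1 (-0.17) with limits after thinning. The filters change how many genes are counted; for the other moves the cause was not tested. No paired analysis was possible because each group was 1 library, and for the same reason no library could be left out.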

Other observations

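Other gene groups of the MI cells within the limits differed from sham in few members. Of 13 interferon response genes 2 were at least 2-fold lower, Ifi27l2a (861 CPM in MI, 2971 in sham) and Ifitm3 (571 and 1236), and 1 was higher, Ifit2 (75.6 and 31.8). The other 10 differed by less than 2-fold (median log2 ratio of the list -0.58). These counts were near the shares of all 9889 genes measured, 15.2% lower and 6.43% higher. Of 17 growth factor and cytokine genes 3 were higher and 3 lower, and the lower count was near the share of all genes. Gdf15, a stress-induced cytokine, was at 47.3 CPM (72 UMIs) in MI and 5.12 (10 UMIs) in sham, and Osm, a cytokine of the interleukin 6 family, at 86.8 and 17.9. The lower genes were Pdgfb (12.5 and 40.0 CPM), Bmp2 (11.8 and 37.9) and Csf1 (6.57 and 15.9, with 68.2 in the sham lymphocytes).

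Of 14 glycolysis and hypoxia genes 3 were at least 2-fold higher in MI and 1 was lower. The glycolytic enzyme Pgam1 was at 114 CPM in MI and 37.4 in sham, and the glucose transporter Slc2a1 at 12.5 (19 UMIs) and 2.56 (5 UMIs), while Gapdh was at 78.2 and 161. Of 12 immediate early genes 2 were at least 2-fold lower in MI, 1 was higher and 9 differed by less (median log2 ratio -0.27). The counts were near the shares of all genes measured, 15.2% lower and 6.43% higher. Egr1 was at 134 CPM in MI and 935 in sham, and Jund at 168 and 500.2. Both had the same order in lymphocytes, at 128 and 643 CPM for Egr1 and 158 and 458 for Jund. Ier3 went the other way, at 550.2 CPM in MI and 234 in sham, with 44.4 and 29.2 in lymphocytes.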
